A study of Mus musculus with 32 samples.

Results

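The nucleolar ribosome biogenesis factors described here are proteins that make, modify, cut and assemble ribosomal RNA, measured in the mouse cell line UB/OC-1. They were chosen by gene symbol from a list of 37 genes, and 28 of these 37 had at least 1 probe set of their own on the arrays, out of 6137 genes with such a probe set. Mrto4 and Npm1 had only a probe set shared with pseudogenes, so their values are uncertain and stay out of all counts. Nhp2, Dkc1, Nop58, Nop2, Ddx18, Tsr1 and Nob1 had no probe set in the annotation used here. The 28 genes had 31 probe sets, of which 28, from 27 genes, were bright enough to test. Surf6, a nucleolar protein of large subunit assembly, was the gene that was not tested, since its highest intensity on 16 arrays was 113, under the noise floor.

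UB/OC-1 is a conditionally immortal line derived from the developing mouse organ of Corti, where the hair cells of the inner ear form, and it carries a temperature-sensitive T antigen that keeps it dividing in the cool. Per the labels, cells of day 0 grew at 33 °C and were undifferentiated, and cells of all later days were at 39 °C. Experiment A covered 12 days and experiment B days 0, 2, 4 and 9, and each culture was measured on 2 array designs, a and b. The days were grouped into day 0 (33 °C, n = 2 cultures), early (39 °C, days 1 to 3, n = 4), middle (39 °C, days 4 to 7, n = 5) and late (39 °C, days 8 to 14, n = 5), with 1 culture of experiment B in each group. All groups are 1 cell line, so temperature, days since the shift and loss of the T antigen cannot be told apart in the comparisons with day 0.

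The nucleolus forms around ribosomal RNA genes transcribed by RNA polymerase I. There, small nucleolar ribonucleoproteins modify the precursor RNA, a box C/D type by methylation and a box H/ACA type by pseudouridylation, while assembly factors, helicases and GTPases build the large and small subunits. Growing and dividing cells make many ribosomes, and the transcription factor Myc is a known activator of many of these genes.

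Values are array intensities on a linear scale that the authors had scaled, with the trimmed mean of every array between 300.4 and 300.8, so each is relative to the RNA of its array and probe sets cannot be ranked against each other. Negative values occur where background exceeded the signal. Values below a noise floor, 140 on design a and 198 on design b, were raised to the floor before log2, and between 30.9% and 50.9% of the probe sets of an array exceeded it. Of the otic markers, Myo7a was above the floor on 15 and Gata3 on 12 of 16 arrays, and Sox2 and Atoh1 on 0. Of the epithelial markers, Krt18 was above it on 16 arrays and Cdh1, Epcam and Krt19 on 0. The list was proposed with earlier results of these arrays known, the early decrease of Gar1 among them, and the other gene lists were chosen with those results known too, so changes against day 0 are a description and are given with no p-value. "Called" means an adjusted p under 0.05 in limma over all 7739 tested probe sets.

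Against day 0, 8 of 28 member probe sets were called lower early (28.6%; 2.04% of all tested probe sets were), 8 of 28 in the middle days (28.6%; 4.57% of all) and 9 of 28 late (32.1%; 6.09% of all). In each of the 3 comparisons 0 were called higher (112, 279 and 374 of all 7739 tested probe sets were). The 9 probe sets called at any time were those of Gar1, Fbl, Nop56, Ncl, Nolc1, Gnl3, Bop1, Ddx21 and Ebna1bp2, and 7 of them were called in all 3 comparisons. The signs were negative for 26, 25 and 25 of the 28, beside 39.4%, 39.7% and 38.1% of all tested probe sets. The median log2 change of the members was -0.76 early, -0.82 in the middle days and -0.91 late, beside 0.05, 0.08 and 0.11 over all tested probe sets. Without day 0 of experiment B, the counts were 2 early, 6 in the middle days and 5 late, and 12 of the 25 calls over the 3 comparisons ended. In experiment A alone the early count was 3, with the calls of Bop1, Ebna1bp2, Gnl3, Ncl and Nolc1 ended. Over all tested probe sets, 91 were called lower early without day 0 of experiment B and 133 in experiment A alone, against 158 with all cultures. Counts over all tested probe sets in the middle and late refits are not given here, so no loss particular to the members is read from them. Ddx21 and Imp4 needed day 0 to pass the brightness filter. Ddx21 exceeded the floor at day 0 alone, so that the sign of its change was set by the filter, and Imp4 exceeded it on 1 day 0 and 1 late array. Without Ddx21 and Imp4, 7, 7 and 8 of 26 were called lower early, in the middle days and late (1.70%, 4.13% and 5.61% of all probe sets that passed on later days alone).

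**Figure D1:**
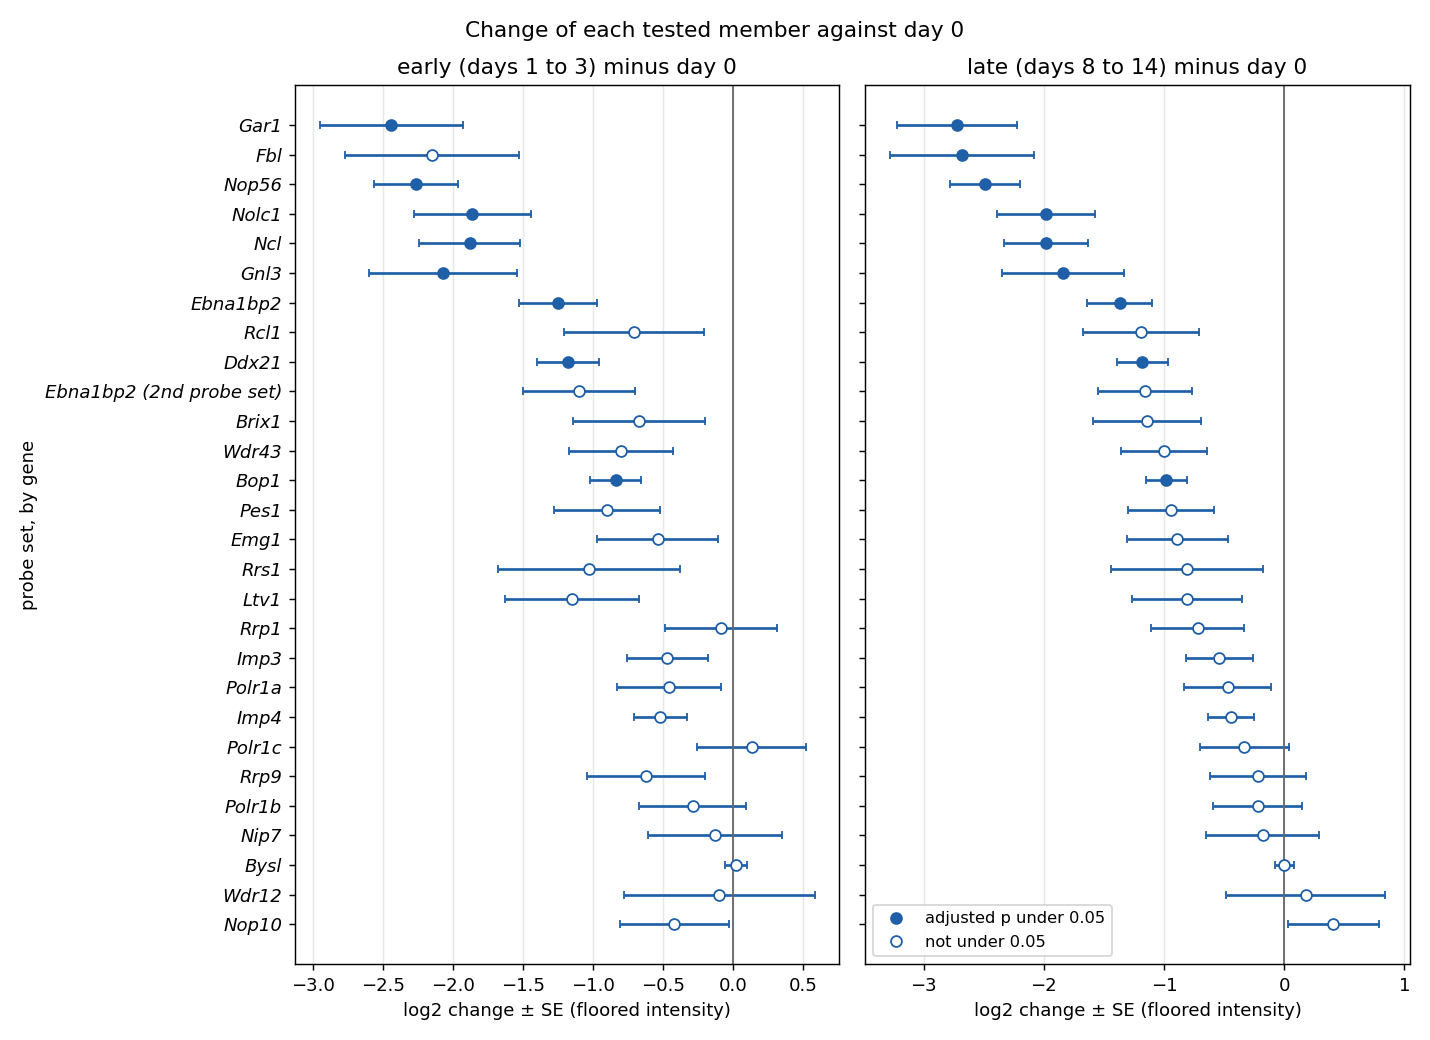
Log2 change ± SE of each of the 28 tested member probe sets, early minus day 0 on the left and late minus day 0 on the right. Filled points are called (adjusted p under 0.05 over all tested probe sets), 8 early and 9 late, and every filled point lies left of 0.

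Of the box H/ACA proteins, Gar1 and Nop10 had probe sets, and they did not move together. Gar1, a core protein of the particle, had intensities of 984 in experiment A and 2173 in experiment B at day 0. Early it had 196, 155 and 240 in experiment A and 564 in experiment B, in the middle days 407, 92, 148 and 278 in A and 628 in B, and late 184, 224, 149 and 312 in A and 155 in B. Both day 0 cultures lay above all 14 later ones. The change was -2.44 ± 0.51 early (SE, n = 4 against 2; 5.42-fold lower) and -2.72 ± 0.50 late (n = 5 against 2; 6.58-fold lower), low estimates since 2 early and 3 late cultures were at the floor. A second Gar1 probe set, drawn by its name from the same clone, exceeded the floor on 0 of 16 arrays. Without day 0 of experiment B, the call ended in all 3 comparisons (early change -1.87, late -2.15), and it also ended early with a lower floor.

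Nop10, the smallest core protein of the same particle, had 1467 in experiment A and 908 in experiment B at day 0. Early it had 879, 1029 and 763 in A and 803 in B, in the middle days 739, 664, 1741 and 1306 in A and 940 in B, and late 2600, 1243, 1754 and 1466 in A and 1027 in B. The day 0 values thus lay inside the range of later days, and Nop10 was not called against day 0 in any phase (early change -0.42 ± 0.39, late 0.41 ± 0.38).

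The box C/D proteins Fbl and Nop56 were both called lower in the middle and late days, and Nop56 early as well. Fbl, fibrillarin, is the methyltransferase of the particle, and it had 1324 in experiment A and 3504 in experiment B at day 0. Early it had 421, 263 and 477 in A and 1050 in B, in the middle days 261, 303, 458 and 258 in A and 923 in B, and late 427, 306, 144 and 245 in A and 686 in B. Every later culture was below its own experiment's day 0, and experiment B was above A at each shared day. The change was -2.15 ± 0.62 early, which was not called, -2.48 ± 0.60 in the middle days and -2.68 ± 0.60 late (6.39-fold lower). With experiment as a block, the early change was -1.79 ± 0.35 and was called. Without day 0 of experiment B, neither the middle (-1.78) nor the late change (-1.97) was called.

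Nop56, a scaffold protein of the same particle, had 681 in experiment A and 955 in experiment B at day 0. Early it had 296, 22 and 60 in A and 135 in B, in the middle days 91, 46, 13 and -33 in A and 92 in B, and late 95, 95, -31 and -6 in A and 158 in B. The day 1 culture of experiment A lay between day 0 and the rest, and 12 of the 14 later cultures were at the floor. The change was -2.26 ± 0.30 early (4.78-fold lower) and -2.49 ± 0.29 late (5.62-fold lower), and in the middle days, with all 5 cultures at the floor, Nop56 was at least 5.76-fold lower. Its calls held in each refit that left out 1 culture.

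Nucleolin and nucleophosmin are abundant nucleolar proteins that bind ribosomal RNA precursors and ribosomal proteins, and Ncl was called lower in all 3 comparisons. Ncl, nucleolin, had 4674 in experiment A and 5638 in experiment B at day 0. Early it had 1356, 798 and 1999 in A and 1731 in B, in the middle days 1634, 1203, 1071 and 1195 in A and 1994 in B, and late 1170, 1913, 1096 and 1099 in A and 1405 in B. The lowest day 0 value exceeded the highest later one, and no value was near the floor. The change was -1.88 ± 0.36 early (3.69-fold lower), -1.89 ± 0.35 in the middle days and -1.98 ± 0.35 late (3.93-fold lower), and without day 0 of experiment B the early change of -1.75 was not called.

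The probe set of Npm1, which the annotation shares with the pseudogene Gm15484, had 4486 in experiment A and 5829 in experiment B at day 0. Early it had 2699, 2053 and 1476 in A and 3692 in B, in the middle days 1364, 1623, 1360 and 1367 in A and 2489 in B, and late 1634, 1227, 1040 and 1189 in A and 2945 in B. All later values were below both day 0 values, and those of experiment A were lower on day 3 than on day 2 and on day 2 than on day 1. Its change was -1.13 ± 0.40 early, not called, and -1.68 ± 0.38 in the middle days and -1.78 ± 0.38 late, both called, and which gene the signal comes from is uncertain.

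Nolc1, a phosphoprotein that shuttles between the nucleolus and Cajal bodies and binds both types of particle, had 647 in experiment A and 848 in experiment B at day 0. Early it had 326, -19 and 228 in A and 167 in B, in the middle days 136, 42, 207 and 102 in A and 160 in B, and late 100, 113, 357 and 240 in A and 127 in B. All later cultures were below both day 0 values, with 357 on day 11 the highest of them. The change was -1.86 ± 0.42 early, -2.25 ± 0.41 in the middle days and -1.98 ± 0.41 late. These are low estimates, since 1 of 4 early, 3 of 5 middle and 3 of 5 late cultures were at the floor. The name of this probe set marks it as shared by a gene family, so the gene is uncertain, and the early and late calls ended without day 0 of experiment B and in experiment A alone, the early one also without day 2 of experiment A, with a lower floor and on the arcsinh scale.

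**Figure D2:**
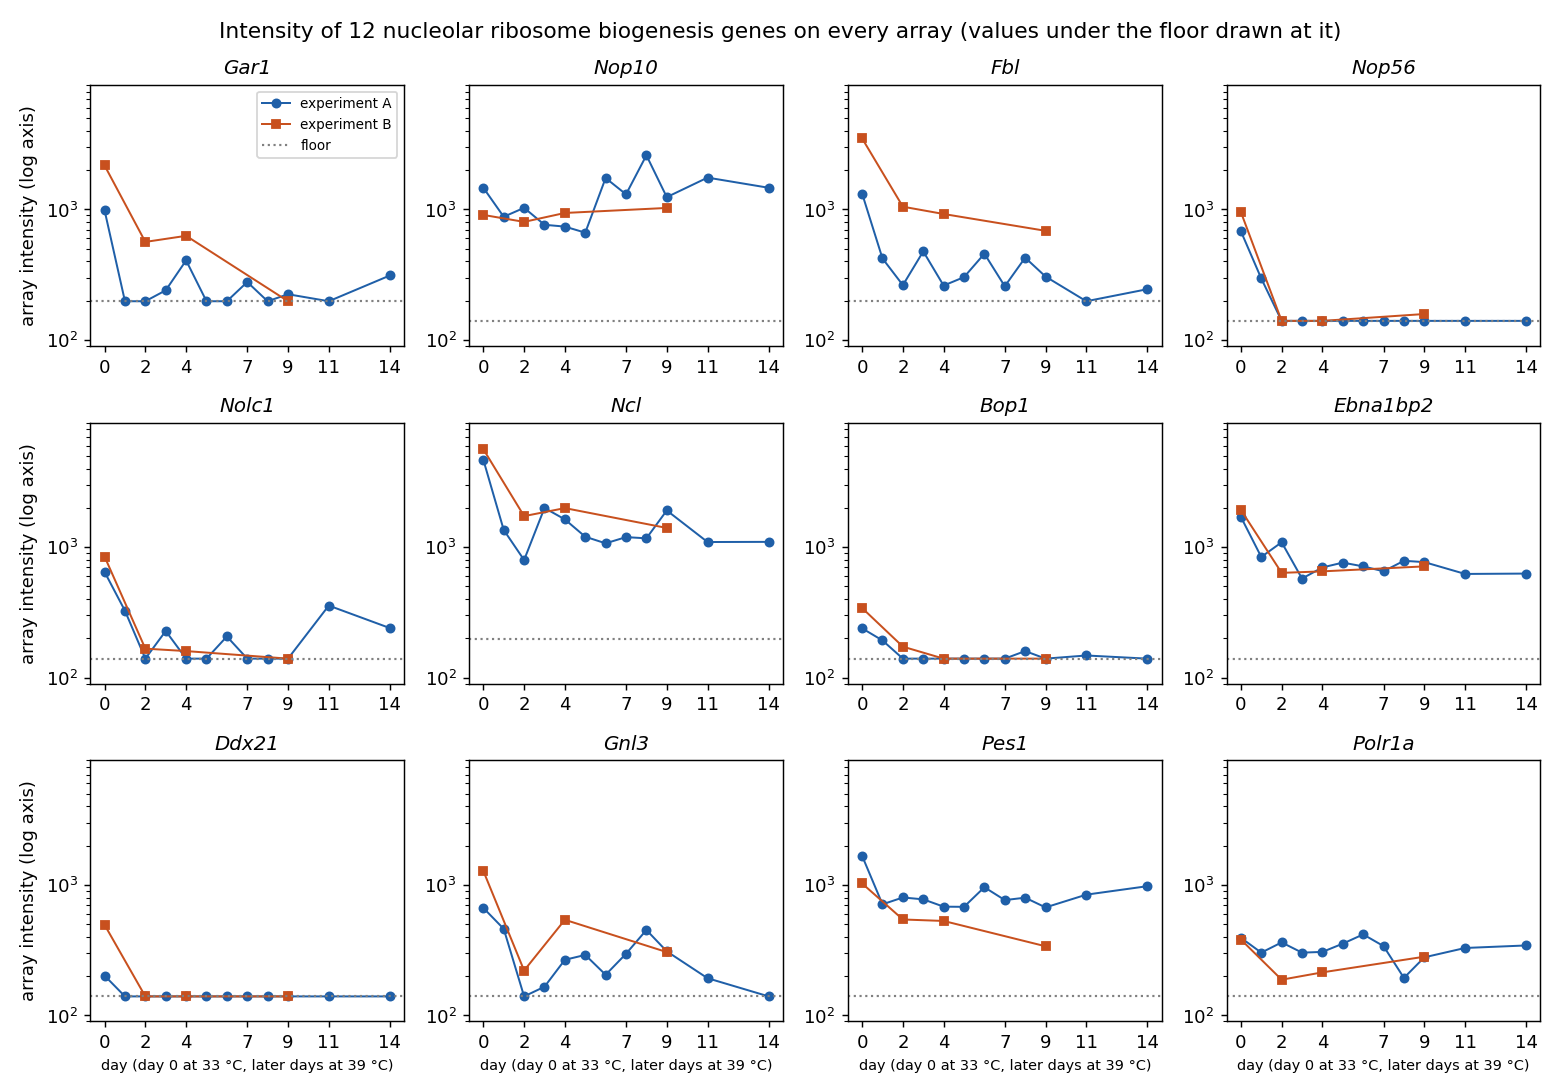
Intensity (log axis) of 12 members on every array by day, for experiment A (circles, 12 days) and experiment B (squares, 4 days), with the noise floor dotted and values under it drawn at the floor. Ncl had its lowest value, 798, on day 2 of experiment A, while Nop56 and Ddx21 lay at the floor on most arrays after day 0. The day 0 values of Nop10 lay inside the range of later days. Those of Polr1a lay above all early and late values, but below 418 on day 6 of experiment A.

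Promoter sequences are shown for members that were lower at 39 °C in each of these classes (Gar1, Nop56 and Ncl), and for 2 members that hold an E-box (Pes1 and Wdr43). They come from RefSeq (GRCm38.p6), each with 250 bases before and 50 bases after the annotated start, read 5′ to 3′ on the gene's strand. Capitals mark CACGTG, the E-box that Myc and its relatives bind, and GGGCGG or its complement CCGCCC, the GC box of Sp-family factors.
Gar1, chr3:129831347-129831646, minus strand: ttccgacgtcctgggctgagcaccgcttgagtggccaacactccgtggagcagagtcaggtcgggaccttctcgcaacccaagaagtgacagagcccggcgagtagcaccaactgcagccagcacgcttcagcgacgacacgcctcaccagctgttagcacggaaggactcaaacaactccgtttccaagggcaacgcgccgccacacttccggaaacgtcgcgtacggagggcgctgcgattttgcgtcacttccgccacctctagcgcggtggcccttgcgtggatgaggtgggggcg
Nop56, chr2:130274162-130274461, plus strand: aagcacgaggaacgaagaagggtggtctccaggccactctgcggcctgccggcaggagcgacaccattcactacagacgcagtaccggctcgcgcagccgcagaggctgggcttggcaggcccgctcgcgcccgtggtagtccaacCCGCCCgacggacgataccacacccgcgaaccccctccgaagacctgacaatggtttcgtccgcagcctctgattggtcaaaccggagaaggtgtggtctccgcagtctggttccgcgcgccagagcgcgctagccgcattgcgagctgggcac
Ncl, chr1:86359406-86359705, minus strand: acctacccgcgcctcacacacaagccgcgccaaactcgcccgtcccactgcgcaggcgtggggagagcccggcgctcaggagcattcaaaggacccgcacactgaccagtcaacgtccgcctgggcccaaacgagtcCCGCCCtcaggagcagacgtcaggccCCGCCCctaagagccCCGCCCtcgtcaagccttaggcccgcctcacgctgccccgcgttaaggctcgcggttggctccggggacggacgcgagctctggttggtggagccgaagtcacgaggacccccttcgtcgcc
Pes1, chr11:3963725-3964024, plus strand: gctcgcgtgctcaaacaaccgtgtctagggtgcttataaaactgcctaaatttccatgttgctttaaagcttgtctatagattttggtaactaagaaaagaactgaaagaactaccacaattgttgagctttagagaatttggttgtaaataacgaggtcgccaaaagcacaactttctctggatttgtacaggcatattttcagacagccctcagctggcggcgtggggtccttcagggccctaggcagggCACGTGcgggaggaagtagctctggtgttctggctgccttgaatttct
Wdr43, chr17:71615965-71616264, plus strand: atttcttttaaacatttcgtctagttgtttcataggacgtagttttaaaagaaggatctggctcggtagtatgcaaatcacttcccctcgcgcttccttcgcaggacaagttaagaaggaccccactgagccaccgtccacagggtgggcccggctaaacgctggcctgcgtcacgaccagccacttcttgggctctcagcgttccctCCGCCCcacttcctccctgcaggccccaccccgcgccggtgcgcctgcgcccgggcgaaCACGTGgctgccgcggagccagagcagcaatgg
Ncl held 3 GC boxes, starting 113, 87 and 72 bases before its start, Nop56 held 1, 104 bases before, and Gar1 held neither motif. The E-box of Pes1 began at base 3 after the start, and that of Wdr43 at base 18, with a GC box 42 bases before the start. The matches in these 5 sequences do not overlap. Of the 25 members with a promoter sequence, 4 (16%) held the E-box, namely Imp4, Ltv1, Pes1 and Wdr43, against 8.09% of 27025 genes, and 16 (64.0%) held the GC box, against 38.2% of all. Both searches covered both strands, the match is to letters alone, and none of the 4 members with an E-box was called against day 0 without a block, although Pes1 (all 3 comparisons) and Wdr43 (late) were with experiment as a block.

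Among the factors of the large subunit, Bop1 and Pes1 belong with Wdr12 to the PeBoW complex, which processes the precursor of the large subunit RNA. Bop1 had 239 in experiment A and 342 in experiment B at day 0. Early it had 193, 126 and 112 in A and 173 in B, in the middle days 114, 6, 58 and 129 in A and 90 in B, and late 160, 36, 148 and -109 in A and 131 in B. It was dim throughout, and most later cultures were at the floor. The change was -0.84 ± 0.18 early and -0.98 ± 0.17 late (1.97-fold lower, a low estimate), and in the middle days Bop1 was at least 2.04-fold lower. On the arcsinh scale the call ended in all 3 comparisons, with a lower floor it ended early and late, and without day 0 of experiment B it ended early.

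Pes1 ranged over 673 to 979 on later days of experiment A, against 1671 at day 0, and over 339 to 544 on later days of experiment B, against 1027 at day 0, so each experiment lay below its own day 0 on every later day. The change was -0.90 ± 0.38 early, -0.88 ± 0.36 in the middle days and -0.94 ± 0.36 late, not called. With experiment as a block it was -1.09 ± 0.25, -1.11 ± 0.25 and -1.16 ± 0.25, called in all 3. Wdr12 had values from 75 to 574 on later days, against day 0 values of 486 in experiment A and 78 in experiment B, and it was not called (late 0.18 ± 0.66).

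Ebna1bp2, an assembly factor of the large subunit, had 1707 in experiment A and 1931 in experiment B at day 0. Early it had 842, 1091 and 575 in A and 636 in B, in the middle days 700, 762, 713 and 654 in A and 653 in B, and late 787, 769, 624 and 628 in A and 713 in B. From day 3 on, all values lay between 575 and 787. The change was -1.25 ± 0.28 early (2.38-fold lower) and -1.37 ± 0.27 late (2.59-fold lower), and the early call ended without day 0 of experiment B. A second probe set of the gene, with 527 in experiment A and 745 in experiment B at day 0, had changes of -1.10 ± 0.40 and -1.16 ± 0.39 that were not called, and its late change was called with experiment as a block (-1.21 ± 0.37).

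Gnl3, nucleostemin, a nucleolar GTPase abundant in stem and dividing cells, had 667 in experiment A and 1281 in experiment B at day 0. Early it had 461, 84 and 166 in A and 221 in B, in the middle days 267, 291, 205 and 297 in A and 541 in B, and late 452, 310, 193 and 103 in A and 306 in B. All later cultures were below both day 0 values, and they spread widely. The change was -2.07 ± 0.53 early (4.19-fold lower) and -1.84 ± 0.51 late (3.57-fold lower), both called, and -1.61 ± 0.51 in the middle days, not called. Its early call depended on single cultures, since it ended when any 1 of 4 was left out, namely days 2 and 3 in experiment A and days 0 and 2 in experiment B. Its late call ended when either day 11 or day 14 was left out of experiment A, or the day 0 culture out of experiment B. Both calls also ended in experiment A alone, with a lower floor and with no filter, and the early one on the arcsinh scale and with other phase limits.

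Ddx21, an RNA helicase of the nucleolus, had 202 in experiment A and 495 in experiment B at day 0. Early it had 107, 23 and -15 in A and 58 in B, in the middle days 30, -8, 26 and 7 in A and 117 in B, and late -24, 39, -64 and -99 in A and 99 in B. It exceeded the floor at day 0 alone and passed the brightness filter through day 0, and all 14 later cultures were tied at the floor, so its calls were fixed by the filter and the floor and are no result. The bound was at least 2.26-fold lower in each phase, at least 1.44-fold without day 0 of experiment B and at least 3.54-fold without day 0 of experiment A.

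The other factors of the large subunit were not called. Brix1 had values from 20 to 395 on later days, against day 0 values of 241 in experiment A and 498 in experiment B (late change -1.14 ± 0.45). Rrs1 had a late change of -0.81 ± 0.63, Rrp1 of -0.72 ± 0.39 and Nip7 of -0.18 ± 0.47. These probe sets had values on both sides of at least 1 day 0 culture on later days. The Mrto4 probe set, shared with the pseudogenes Mrto4-ps1 and Mrto4-ps2, exceeded the floor on 3 of 16 arrays, with 106 in experiment A and 645 in experiment B at day 0, and it was called lower in the middle and late days although its day 0 and later values overlapped.

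RNA polymerase I subunits were not called against day 0. Polr1a, the largest subunit, had values from 188 to 418 on later days, against day 0 values of 394 in experiment A and 382 in experiment B, with a late change of -0.47 ± 0.36. Polr1b, the second largest subunit, had 328 and 198 at day 0 in experiments A and B and a late change of -0.22 ± 0.37. Polr1c, a subunit shared with RNA polymerase III, had 976 and 683 at day 0 and a late change of -0.33 ± 0.37, and its second probe set exceeded the floor on 0 of 16 arrays.

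Factors of the small subunit were likewise not called against day 0 when all cultures were fitted without a block. Wdr43, a protein of the complex that first binds the precursor, had values from 88 to 274 on later days, against day 0 values of 325 in experiment A and 420 in experiment B, and a late change of -1.0 ± 0.36. With experiment as a block, Wdr43 was called late (-1.15 ± 0.30). Rcl1, which acts in processing of the small subunit RNA in yeast, had a late change of -1.19 ± 0.48. Emg1, a methyltransferase of the small subunit RNA, had one of -0.89 ± 0.42 and Ltv1, a factor of late small subunit assembly, one of -0.81 ± 0.46. Rrp9, a factor of precursor cleavage, had a late change of -0.22 ± 0.40. Imp3 and Imp4, which act in the same step, were barely measured: on Imp3 all 5 late cultures and 1 of 2 at day 0 were at the floor, and on Imp4 4 of 5 late cultures and 1 of 2 at day 0 were. Bysl, a factor of small subunit assembly, exceeded the floor on 2 of 16 arrays and had no measurable change.

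The timing was read from each culture's own experiment. The median over the 28 probe sets, as a difference from the same experiment's day 0, was -0.60 on day 1 of experiment A, -0.58 on day 2 and -0.86 on day 3. It lay between -1.03 on day 4 and -0.57 on day 7 for the rest of that experiment, and was -0.77 on day 14. In experiment B it was -1.12 on day 2, -0.91 on day 4 and -0.89 on day 9. On each of the 14 later cultures, 22 to 25 of the 28 lay below their own day 0.

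**Figure D3:**
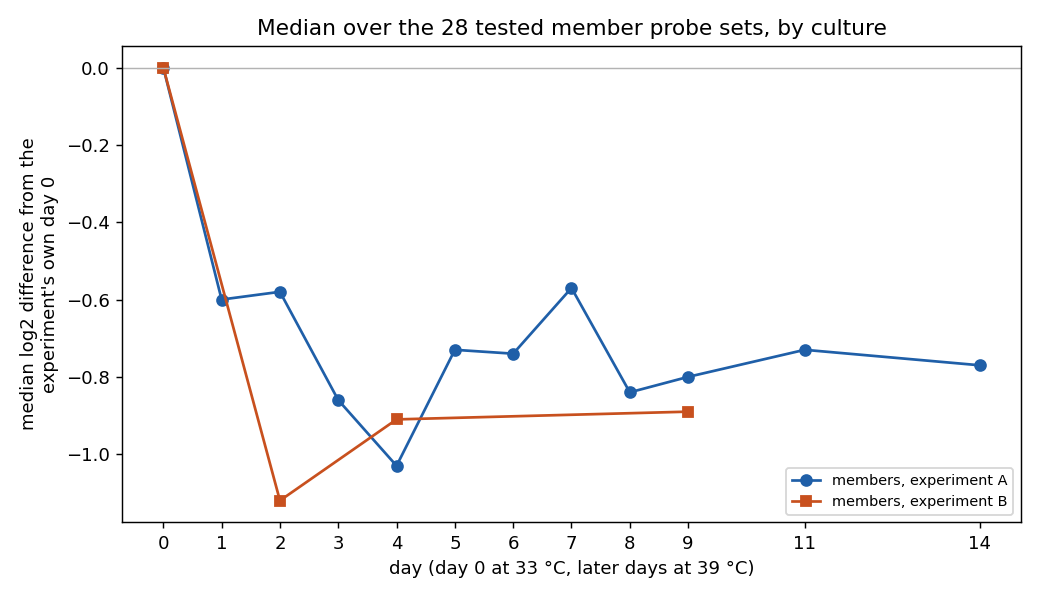
Median log2 difference of the 28 tested member probe sets from the same experiment's day 0, by day, for experiment A (circles) and experiment B (squares). The first culture after the shift is at -0.60 in A (day 1) and at -1.12 in B (day 2), and all later points lie between -1.03 and -0.57.

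The comparison of late with early days, both at 39 °C, asked whether the members went on changing, and it did not use day 0. Here 0 of 28 were called lower (0.556% of all tested probe sets were) and 0 higher (0.426% of all) by limma, with 1 at an unadjusted p under 0.05. The median change was -0.07, beside 0.05 over all tested probe sets. The 1 was Nop10, with a geometric mean of 1535 late and 863 early (0.83 ± 0.30, n = 5 against 4, adjusted p = 0.279 by limma). Gar1 changed by -0.28 ± 0.40 (limma adjusted p = 0.886), Nop56 by -0.24 ± 0.23 (0.825), Fbl by -0.53 ± 0.48 (0.804) and Ncl by -0.09 ± 0.28 (0.959). These intervals are wide, and a p above the threshold does not show that levels stayed constant. Values at the floor could not show a further fall. Ddx21 was at the floor on all 4 early and all 5 late cultures. Nop56 was there on 3 early and 4 late cultures, and Gar1 on 2 early and 3 late. Imp3, Imp4 and Bysl were at the floor on most early and late cultures too.

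The 28 probe sets were not alike over the 16 arrays. Each was correlated with the mean of the other members on its design, a description over arrays that share experiment, day and scaling. For 15 of 28 the correlation exceeded 0.5, led by Nop56 (r = 0.93, with 24 others on design a), Ebna1bp2 (0.90), Ncl (0.89) and Gar1 (0.89), both with 2 others on design b. It was lowest for Nop10 (-0.02) and near 0 for Bysl (0.00), Nip7 (0.04) and Polr1c (0.05). Nop56 exceeded the floor on 4 of 16 arrays, 2 of them at day 0, and Bysl on 2, so ties at the floor shape both values. Both day 0 cultures are among the 16 arrays, so the correlations partly repeat the changes against day 0 and are no separate result.

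Experiments A and B were compared with the phases kept in the fit, a comparison that was added after the data were seen, and members were called about as often as other probe sets. In experiment B 6 of 28 were higher (14.7% of all tested probe sets were) and 2 of 28 lower (15.6% of all). The median difference was -0.01 over the members, beside -0.09 over all tested probe sets. Fbl was higher in B by 1.44 ± 0.23 (limma adjusted p = 0.000289), and at each of the 4 shared days. Rrs1 was higher by 1.41 ± 0.29 (limma adjusted p = 0.00134), with 835, 367, 559 and 542 in B and 239, 315, 207 and 308 in A on days 0, 2, 4 and 9. Brix1 (0.99 ± 0.21), Rcl1 (0.91 ± 0.25), Gar1 (0.88 ± 0.27) and Emg1 (0.72 ± 0.23) were the other 4 that were higher. Gar1 was higher in B on days 0, 2 and 4 but not on day 9.

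Pes1 was lower in B, by -0.76 ± 0.17 (limma adjusted p = 0.00284) and at all 4 shared days, and Rrp9 by -0.71 ± 0.22 (limma adjusted p = 0.0214) but not on day 9. The noise level of the arrays, the 75th percentile of the size of their negative values, differed too, with 68.0 to 159 in B and 102 to 202 in A on design a, and 75 to 160 in B and 153 to 324 in A on design b. With that level in the fit, 3 were higher and 1 lower, and with the 4 shared days alone 3 were higher and 0 lower. Counts over all tested probe sets in those fits are not given here, so no loss particular to the members is read from these counts. The labels give the letters A and B with no date or site, so what the experiments differed in was not tested.

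**Figure D4:**
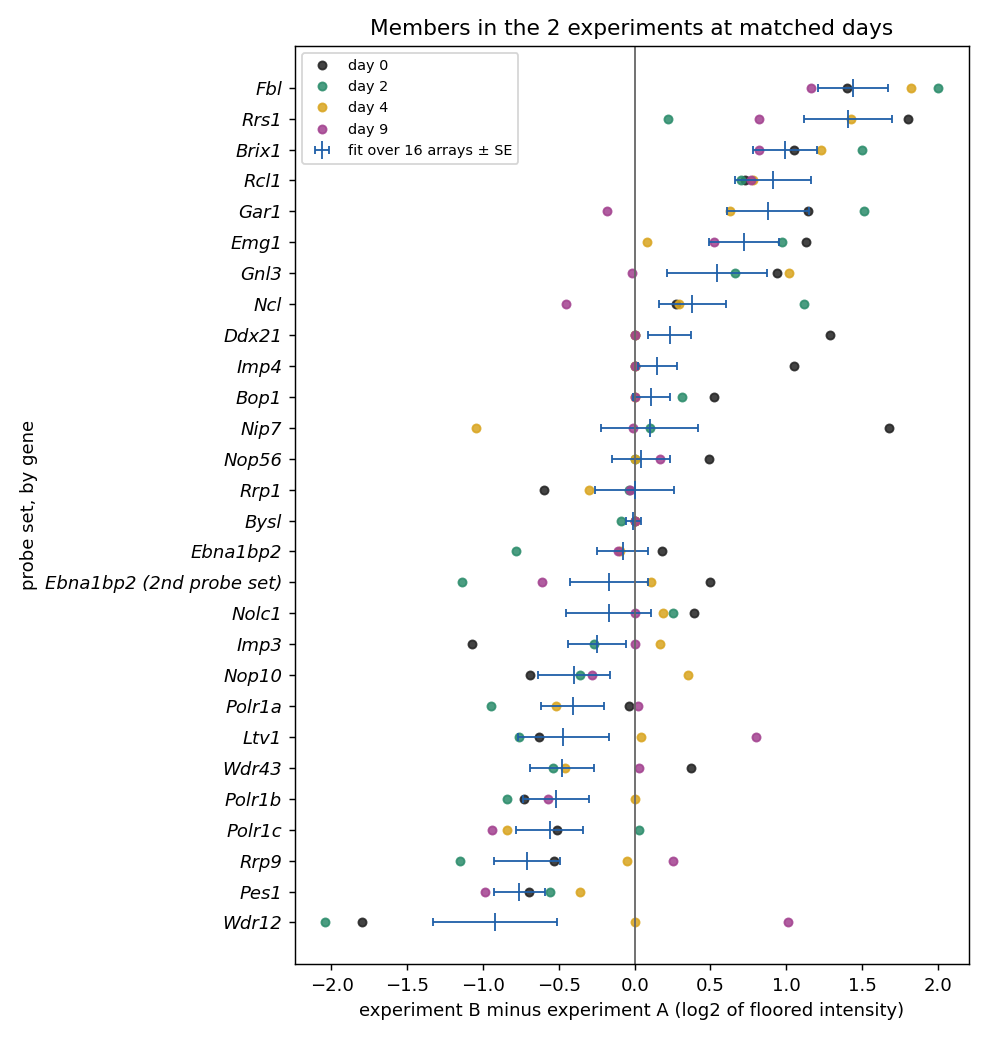
Difference between experiments (B minus A, log2 of floored intensity) for the 28 tested member probe sets, with a point for each shared day (0, 2, 4 and 9) and a bar for the fit over all 16 arrays ± SE. Fbl, Rrs1, Brix1, Rcl1 and Emg1 lie right of 0 on all 4 days and Pes1 lies left of it on all 4.

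Other genes of the pathway were read from a list of 148, of which 49 had a probe set of their own and 44 genes, with 53 probe sets, were tested. Against day 0, 10 of 53 were called lower early, 16 in the middle days and 18 late (2.04%, 4.57% and 6.09% of all tested probe sets). Each time 0 were called higher, beside 112, 279 and 374 of all 7739 tested probe sets. Without 5 probe sets that needed day 0 to pass the filter, the counts were 7, 13 and 15 of 48. Of all probe sets that passed on later days alone, 1.7%, 4.13% and 5.61% were called lower. The medians over the 53 were -0.59, -0.68 and -0.71. None was called between late and early days in either direction. Eif6, which keeps new large subunits from joining small ones, exceeded the floor on 1 later array, against day 0 values of 768 in experiment A and 963 in experiment B, and late it was at least 6.14-fold lower. It passed the filter through day 0, so its call was fixed by the filter and the floor. Mybbp1a, a nucleolar protein that binds Myb, fell by 1.76 ± 0.38 early and by 2.49 ± 0.37 late.

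Pa2g4, a growth-regulated nucleolar protein, fell by 2.82 ± 0.56 and fell by 2.35 ± 0.47 late on 2 probe sets, both of them shared by a gene family by their names. Another Pa2g4 probe set, with no such mark and above the floor on 15 of 16 arrays, had a late change of -1.26 ± 0.48 that was not called. Wdr74 and Ftsj3, factors of large subunit assembly, fell early by 1.42 ± 0.33 and 1.38 ± 0.34. The Wdr74 value is from a probe set above the floor on 6 arrays, and a second one, above it on 16, had an early change of -1.32 ± 0.38 that was not called. Nmd3, the export adaptor of the large subunit, and Abce1, which recycles ribosomes, fell late by 1.63 ± 0.47 and 1.63 ± 0.49. A second Abce1 probe set, above the floor on 4 arrays and at the floor on both day 0 arrays, had a late change of 0.00 ± 0.14. These values share their day 0 cultures with those of the members.

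Of the listed regulators, 7 genes on 8 probe sets were tested, and Myc was the gene that was lower. It had 485 in experiment A and 315 in experiment B at day 0. Early it had 102, 179 and 27 in A and 96 in B, in the middle days 3, 78, 148 and -3 in A and 59 in B, and late -2, -15, 223 and 178 in A and 121 in B. Both day 0 values exceeded all later ones, 10 of which were at the floor. The change was -1.39 ± 0.24 early and -1.28 ± 0.23 late, both called, 2.63-fold and 2.42-fold lower as low estimates. Mxi1, which competes with Myc for its partner Max, was at the floor on both day 0 arrays, and it was called higher in the middle days (at least 2.59-fold) and late (at least 2.67-fold). It passed the filter through later days alone, so the sign of its change was set by the filter and the floor. Mycn, Mycl and Mxd1 exceeded the floor on no array.

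Markers of dividing cells were also lower than at day 0. Of 11 probe sets of 7 such genes, 5 were called lower early, 8 in the middle days and 9 late (2.04%, 4.57% and 6.09% of all tested probe sets), and their summed intensity was 12410 to 15740 at day 0, 4200 to 8008 early, 3907 to 5884 in the middle days and 3470 to 4497 late. Between late and early days, 1 of the 11 was called lower (0.556% of all tested probe sets were). The median change there was -0.28, beside -0.07 for the members. Against day 0, Mki67, a marker of dividing cells, fell late by 1.37 ± 0.30 and Tk1, thymidine kinase, by 2.18 ± 0.30. Their part in the members' change was not tested, and in these bulk cultures fewer dividing cells and less RNA per cell cannot be told apart. Single markers of other cell types moved as well. Late against day 0, the epithelial keratin Krt18 was 6.23-fold lower, the neuronal tubulin Tubb3 3.72-fold lower and the mesenchymal filament Vim 3.14-fold lower, all called. The otic factor Gata3 and the fibroblast proteoglycan Dcn were at the floor on both day 0 arrays and were called higher late, at least 3.01-fold and at least 72.3-fold. Both passed the filter through later days alone, so the sign of these changes was set by the filter and the floor. The summed intensity of the epithelial list was 763 to 1442 late, against 4442 to 5884 at day 0. That of the mesenchymal list was 9378 to 25237 late, against 6204 to 7797 at day 0. The epithelial sum at day 0 was mostly Krt18 (5437 in experiment A), and the late mesenchymal sum mostly Dcn (22560 on day 14 of A). Krt8 (late -0.05 ± 0.16 and 0.19 ± 0.32 on its probe sets), Col1a1 and Col3a1 were not called in any comparison. Nor were the other tested otic markers, Eya1, Pax2, Myo7a, Myo6, Ocm and Pax8, or the glial marker Gfap. Snap25, a neuronal marker, exceeded the floor on no array. The part of these markers in the members' change was not tested either. Of the macrophage and blood markers, Ptprc and Lyz2 exceeded the floor on 16 of 16 arrays and Adgre1 on 0, the summed intensity of the list was 3370 to 12774 late, against 1515 to 4934 at day 0, and 0 of 3 tested were called in any comparison.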

How the data were processed

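Total RNA of UB/OC-1 cultures was measured on 2 oligonucleotide array designs with 16 arrays each. The deposited values are intensities scaled by the authors (trimmed mean, 2% left out at each end, 300.4 to 300.8 on every array), with 22.9% below 0 on design a and 33% on b. Which software and background method the authors used is not given in the sources used here. The 61 control probe sets of each design were left out, values were floored at the 75th percentile of the size of a design's negative values (140 and 198), and a probe set needed values above the floor on 2 or more of its 16 arrays to be tested. Symbols came from GEO's platform annotation, promoters from RefSeq.

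Fits used R 4.3.3 with limma 3.58.1 (lmFit and a robust, trended eBayes) on log2 values, each design by itself, with two-sided tests, Benjamini-Hochberg adjustment over both designs and a threshold of 0.05. The days of a phase act as its samples, and nothing says that cultures were independent, so p-values reflect only how much these samples vary, which may be technical. Ties at the floor carry no spread, which can make p-values too small. The code was tested on simulated data.

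By the labels, the days of one experiment belong together, and differences between experiments correlated between days (r from 0.273 to 0.726 over 12 pairs), so experiment pairs the samples. The members and gene lists were chosen with earlier results of these data known. Named members were the box H/ACA and box C/D proteins, Ncl, Npm1 and those past the threshold. Of the other lists, up to 6 per comparison with the largest change past the threshold were named, and Myc. Alternatives were other floors, filters, scales, phase limits, quantile normalization, a noise covariate, a block and each culture left out.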

Additional observations from a re-analysis of the deposited data

Results flagged for a closer look

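Within phases, groups of 4 or 5 cultures were screened for a value far from the rest, and 3 of 25 groups were picked out. Chance alone gives about 1 in 20 for untied values, a rate that does not apply to any of the 3 groups picked out. In the Nop56 groups the other cultures were tied at the floor, and any value above it would be picked out. In the Gar1 group 3 of 5 cultures were tied at the floor. In the early group, Nop56 had 296 on day 1 of experiment A while the other 3 cultures were at the floor. In the late group, Nop56 had 158 on day 9 of experiment B with the other 4 cultures at the floor of 140. Gar1 had 312 on day 14 of experiment A, above the other 4 late cultures, 3 of which were at the floor.

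Nip7, a factor of large subunit assembly, went opposite ways in the experiments. The mean log2 difference of days 2, 4 and 9 from day 0 was 0.88 in experiment A and -1.12 in experiment B. It had 362, 851 and 708 on those days in A, against 327 at day 0, and 388, 412 and 702 in B, against 1048 at day 0. The difference was not tested.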

How the results depend on the processing

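Depth is limited by 2 day 0 cultures and by members near the floor. The count of 8 members called lower early was 3 in experiment A alone, 4 with a lower floor, 5 when above the floor on at least 8 arrays and 4 on the arcsinh scale. Leaving out 1 culture at a time gave counts of 2 to 9 early, 6 to 9 in the middle days and 5 to 10 late, and medians of -1.06 to -0.71, -1.05 to -0.72 and -1.21 to -0.77. The lowest counts came without day 0 of experiment B and the lowest medians without day 0 of experiment A. The middle median was -0.59 with a higher floor, and the late median -1.14 with a lower and -0.62 with a higher floor. In no alternative did a called member change sign. With experiment as a replicate block the counts were 10, 9 and 12, and 0 between late and early days, where no alternative gave a call (medians -0.13 to 0.00 with 1 culture left out). The calls it added were those of Pes1, Fbl, Wdr43 and the second Ebna1bp2 probe set. The 6 members higher and 2 lower in experiment B were 3 and 1 with the noise covariate, and 3 and 0 on matched days. Over all probe sets, the 158 lower and 112 higher early were 133 and 43 in experiment A alone and 62 and 113 on the arcsinh scale. They were 98 and 121 with a lower floor, 94 and 113 when above the floor on at least 8 arrays and 267 and 202 with the block. Late, 471 lower and 374 higher became 390 and 429 on the arcsinh scale. Middle, 354 and 279 became 266 and 334. The cause was not tested. Counts over all tested probe sets in the other refits are not given here, so nothing particular to the members is read from those refits.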
